A study of Mus musculus with 24 samples.

Results

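The interleukin 1 system was followed here through 10 genes chosen by symbol, out of the 54232 gene identifiers in the count tables. They were the ligands Il1a, Il1b, Il18 and Il33, the antagonist Il1rn, the receptor chains Il1r1, Il1rap, Il1r2 and Il1rl1, and the protease Casp1. Each symbol matched 1 identifier. The choice was by symbol, but it was made with earlier results of these data known. RNA came from bone marrow stromal cells of female C57BL/6 mice, aged 6 to 8 weeks, cultured for 7 days in serum-containing medium with no added cytokine named in the labels. The mice carried the Sh3bp2KI/KI genotype, a knock-in on both alleles of the adaptor gene Sh3bp2 that serves as a mouse model of the human jaw disease cherubism, or were wild type. After culture the cells were sorted by flow cytometry into CD45+Sca1+ cells, called hematopoietic, and CD45-Sca1+ cells, called mesenchymal, so that both kinds of cell had grown in the stromal cultures until the sort. The 4 groups were Sh3bp2KI/KI hematopoietic, wild type hematopoietic, Sh3bp2KI/KI mesenchymal and wild type mesenchymal, with 6 libraries each. Whether replicates came from separate animals or dishes is not stated in the labels. The p-values speak of the spread between these libraries alone, and that spread may be technical.

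Interleukin 1 alpha and beta bind the receptor encoded by Il1r1, which then recruits the accessory chain encoded by Il1rap and signals through the adaptor MyD88 to the transcription factor NF-kB. The antagonist encoded by Il1rn occupies that receptor without recruiting the accessory chain, and the Il1r2 product is a decoy that binds ligand without signalling. Interleukin 33 uses the Il1rl1 product, ST2, with the same accessory chain, while caspase-1, the Casp1 product, cleaves the precursors of interleukin 1 beta and interleukin 18 inside inflammasomes. In bone, interleukin 1 is known as a cytokine of macrophages that acts on stromal cells and osteoclasts.

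Library totals ran from 9875390 to 15826711 counts, and levels are given as CPM, counts scaled to library size with TMM factors over the 24 libraries. The CD45 gene Ptprc ran from 671 to 872 CPM in hematopoietic libraries of both genotypes and from 0.790 to 5.92 CPM in mesenchymal ones. Ly6a, the gene of the other sort marker Sca1, was low, at 4.55 to 14.5 CPM in Sh3bp2KI/KI and 2.61 to 32.9 CPM in wild type hematopoietic libraries, and at 6.63 to 16.9 CPM in Sh3bp2KI/KI and 7.41 to 13.2 CPM in wild type mesenchymal libraries. Sh3bp2 averaged 232 ± 36.5 CPM in Sh3bp2KI/KI and 211.6 ± 25.6 CPM in wild type hematopoietic libraries (SD, n = 6 each), and a gene count does not show the altered allele. Stromal marker genes gave an estimated stromal share of 5.01% to 21.6% of the RNA in Sh3bp2KI/KI and 6.74% to 21.7% in wild type hematopoietic libraries, and replicate 3 of each genotype exceeded 15%. The reverse share, hematopoietic RNA in mesenchymal libraries, averaged 0.600% ± 0.336 in Sh3bp2KI/KI and 0.406% ± 0.112 in wild type (SD, n = 6 each). Libraries fell into 2 sets by a prefix of their file names, 3 of each group in each, which are called run 1 and run 2 here although no label states what the prefix means. In such bulk samples, fewer cells of a type and less RNA per cell cannot be told apart.

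The genotype comparisons asked how the knock-in changed each population. In Sh3bp2KI/KI mesenchymal cells the antagonist Il1rn was 4.20-fold lower than in wild type mesenchymal cells, while the receptors Il1rl1 and Il1r1 were 1.93-fold and 1.32-fold higher. In Sh3bp2KI/KI hematopoietic cells the ligand Il1b and the receptor Il1r1 were 1.67-fold and 1.95-fold higher than in wild type, and the ligand Il18 was 1.27-fold lower. By the quasi-likelihood test of edgeR, adjusted after Benjamini and Hochberg over every gene tested, 3 of 9 tested genes of the 10 changed in hematopoietic cells, 2 higher and 1 lower. There 15.9% of 14030 genes were called, 9.01% higher and 6.89% lower. In mesenchymal cells 3 of 6 tested genes changed, 2 higher and 1 lower, where 7.27% of 13867 genes were called, 3.44% higher and 3.83% lower. The 6 tested there exclude Il1a, Il1b, Il1r2 and Il33, whose counts were too low, and Il33 was also too low in hematopoietic cells. Median log2 fold changes over the tested genes of the 10 were 0.28 in hematopoietic and 0.02 in mesenchymal cells, beside -0.0048 and 0.0011 over all tested genes.

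**Figure D1:**
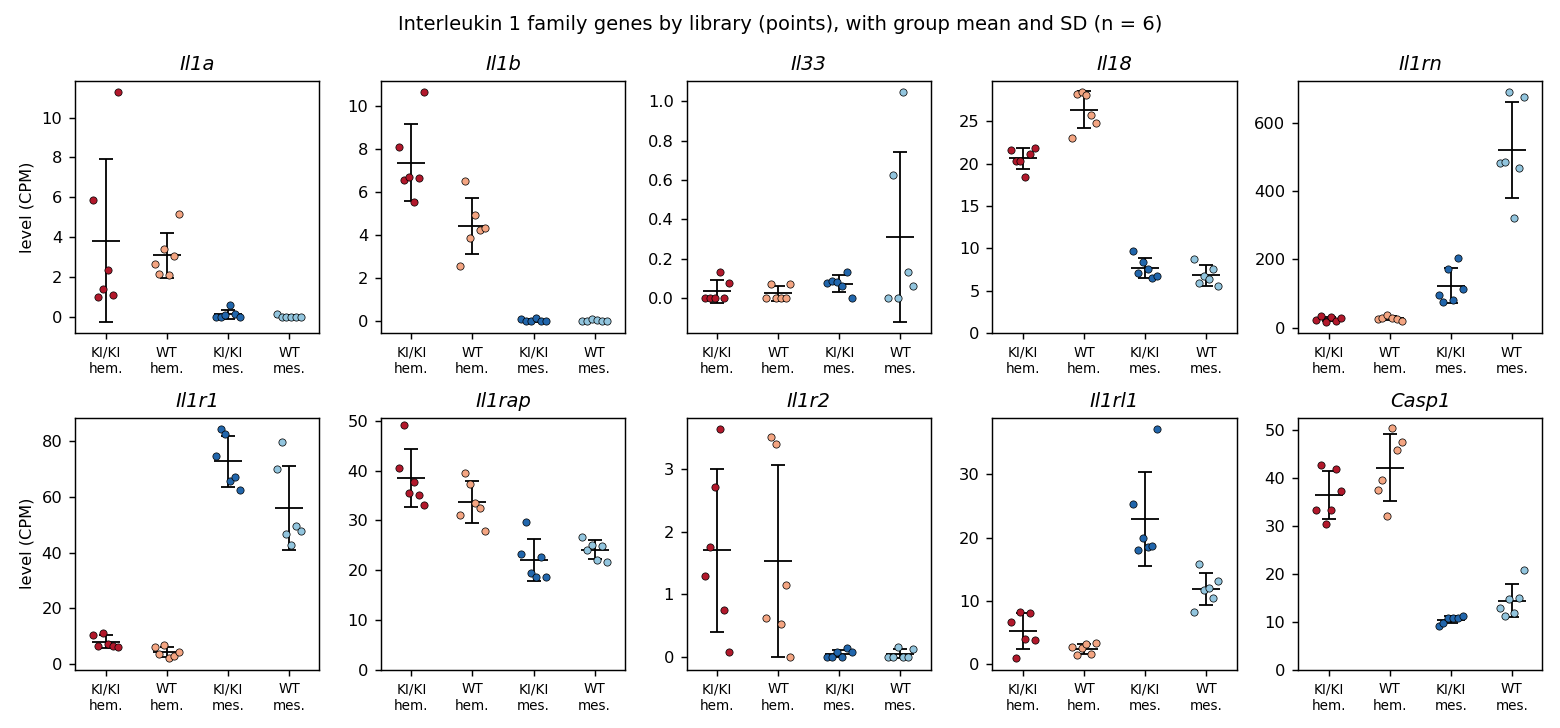
Level of each of the 10 genes in CPM (y axis, linear and scaled per gene) in the 24 libraries, by group (x axis: Sh3bp2KI/KI left of wild type, hematopoietic then mesenchymal), with points for libraries and bars for the mean and SD of 6. Il1rn lies between 75.5 and 204 CPM in Sh3bp2KI/KI mesenchymal libraries, below the 319.9 to 688 CPM of wild type, and Il1b lies near 0 in all mesenchymal libraries.

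**Figure D2:**
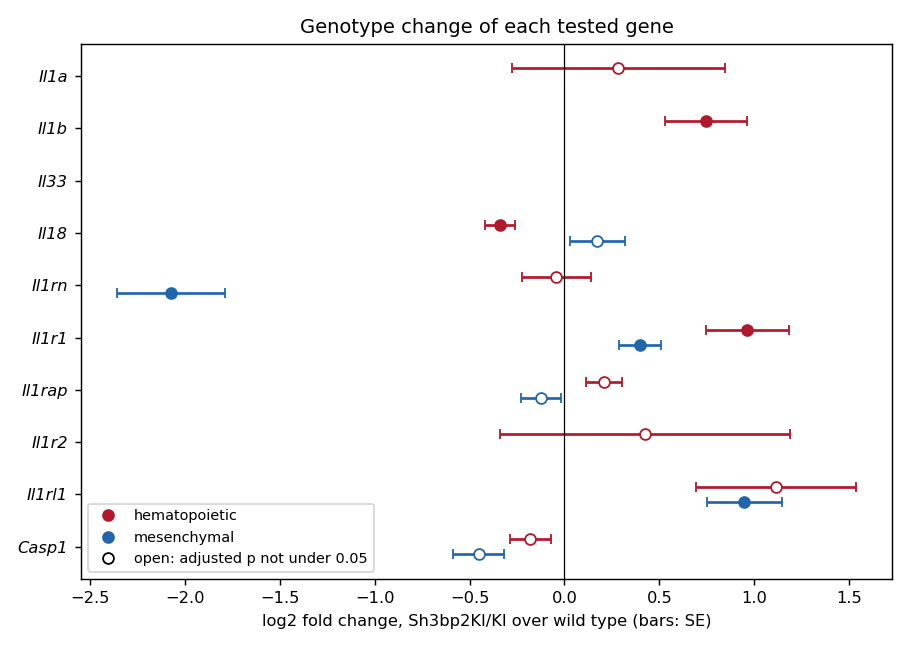
Log2 fold change (x axis, Sh3bp2KI/KI over wild type) of each tested gene (y axis) in hematopoietic (red) and mesenchymal (blue) cells, with bars for the standard error and filled points for an adjusted p under 0.05. Il1rn in mesenchymal cells stands at -2.07 and Il1r1 is right of 0 in both populations, while Il33 has no point because its counts were too low to test.

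Among the ligands, Il1b (ENSMUSG00000027398, GRCm38 chr2:129364570-129371139, minus strand) encodes interleukin 1 beta. Its level had a lowest, median and highest value of 5.55, 6.69 and 10.6 CPM in Sh3bp2KI/KI hematopoietic libraries, against 2.57, 4.29 and 6.53 CPM in wild type hematopoietic libraries. Of the 6 Sh3bp2KI/KI libraries 5 were above every wild type library, and the ranges overlapped through 1 library. The log2 fold change was 0.74 (SE 0.22, edgeR adjusted p = 0.0343), resting on 573 counts in Sh3bp2KI/KI and 352 in wild type over 6 libraries each. This call was sensitive to the libraries used: adjusted p was over 0.05 in 9 of 12 fits that left out 1 library, reaching 0.0742 by edgeR, and in each run alone it was 0.271 and 0.238 by edgeR, with 3 libraries a group and log2 fold changes of 0.74 and 0.76. Without the replicate 3 libraries it was 0.0867 by edgeR, at a log2 fold change of 0.74. In mesenchymal libraries Il1b had 3 counts in all 6 Sh3bp2KI/KI libraries together and 2 in all 6 wild type ones. The 250 bases before its RefSeq start (GRCm38.p6) are printed because Il1b was the ligand that rose, and they hold none of the motifs searched, so no letter is in capitals.
Il1b upstream, chr2:129371140-129371389, minus strand: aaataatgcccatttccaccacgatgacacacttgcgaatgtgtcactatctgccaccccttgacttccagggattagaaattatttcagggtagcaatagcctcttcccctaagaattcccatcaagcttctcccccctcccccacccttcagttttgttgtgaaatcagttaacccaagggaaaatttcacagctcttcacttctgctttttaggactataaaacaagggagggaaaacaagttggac

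Interleukin 18, whose precursor is cut by caspase-1, is encoded by Il18 (ENSMUSG00000039217, chr9:50554827-50581840, plus strand). Il18 had a lowest, median and highest level of 18.4, 20.8 and 21.9 CPM in Sh3bp2KI/KI hematopoietic libraries, against 23.03, 26.9 and 28.5 CPM in wild type ones. Each Sh3bp2KI/KI library was below each wild type library, and the ranges did not overlap. Its log2 fold change was -0.34 (SE 0.08, edgeR adjusted p = 0.0114). It kept its call in all 12 fits that left out 1 library, while adjusted p was 0.0518 by edgeR without the replicate 3 libraries and 0.231 in each run alone. In mesenchymal libraries Il18 ran from 6.49 to 9.69 CPM in Sh3bp2KI/KI, median 7.33, and from 5.54 to 8.80 CPM in wild type, median 6.51. Those ranges overlapped, and the log2 fold change of 0.17 did not pass the test (SE 0.14, edgeR adjusted p = 0.528).

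Il1a (ENSMUSG00000027399, chr2:129299610-129309972, minus strand) encodes interleukin 1 alpha, which is active without cleavage by caspase-1. Its lowest, median and highest levels were 1.02, 1.89 and 11.3 CPM in Sh3bp2KI/KI hematopoietic libraries, against 2.11, 2.86 and 5.15 CPM in wild type ones. The Sh3bp2KI/KI libraries lay on both sides of the wild type range, with 2 above all of it and 3 below all of it. The log2 fold change of 0.28 had an SE of 0.56 (edgeR adjusted p = 0.792), and it turned to -0.11 without Sh3bp2KI/KI replicate 1 and to -0.40 without replicate 6. Mesenchymal libraries held 12 counts of Il1a in Sh3bp2KI/KI, 9 of them in 1 library, and 2 counts in wild type. Il33 (ENSMUSG00000024810, chr19:29925114-29960718, plus strand) encodes a nuclear alarmin made by many stromal and epithelial tissues. It was close to absent from these libraries, with 3 counts in Sh3bp2KI/KI hematopoietic, 2 in wild type hematopoietic, 6 in Sh3bp2KI/KI mesenchymal and 26 in wild type mesenchymal libraries. Of those 26 counts, 15 and 8 came from 2 libraries and another 2 wild type mesenchymal libraries had none, and Il33 missed the filter on low counts. With no filter it was called lower in hematopoietic than in mesenchymal cells of wild type (log2 fold change -3.16, edgeR adjusted p = 0.0153).

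The receptor antagonist Il1rn (ENSMUSG00000026981, chr2:24336853-24351494, plus strand) showed the largest genotype change of the tested genes among the 10 in size of log2 fold change. Its lowest, median and highest levels were 75.5, 104 and 204 CPM in Sh3bp2KI/KI mesenchymal libraries, against 319.9, 484 and 688 CPM in wild type mesenchymal libraries. Every Sh3bp2KI/KI library was below every wild type library, and the ranges did not overlap. The means were 123 ± 52.3 CPM in Sh3bp2KI/KI and 519.9 ± 139.8 CPM in wild type (SD, n = 6 each), and the log2 fold change was -2.07 (SE 0.28, edgeR adjusted p = 0.00151). The same direction held within each run, at 114 ± 50.2 CPM in Sh3bp2KI/KI against 552 ± 118 CPM in wild type in run 1, and 133 ± 63.6 CPM against 488 ± 178 CPM in run 2 (SD, n = 3 each). In run 2 alone the log2 fold change of -1.86 did not pass the test (edgeR adjusted p = 0.139). Leaving out any 1 library gave log2 fold changes from -2.29 to -1.95 and kept the call.

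In hematopoietic libraries Il1rn did not pass the test: it had a lowest, median and highest level of 17.97, 25.9 and 34.3 CPM in Sh3bp2KI/KI, against 18.6, 26.9 and 36.6 CPM in wild type. The ranges overlapped over most of their width, and the log2 fold change was -0.04 (SE 0.18, edgeR adjusted p = 0.905). The difference between the population-specific changes, hematopoietic minus mesenchymal, was 2.01 in log2 (SE 0.34, edgeR adjusted p = 0.000605, interaction term). These hematopoietic levels stood beside the stromal RNA in those libraries. Had the estimated stromal share carried Il1rn at the mesenchymal mean of its genotype, it would have brought 13.1 ± 7.09 CPM into Sh3bp2KI/KI and 58.3 ± 28.3 CPM into wild type hematopoietic libraries (SD, n = 6 each). The measured wild type mean of 27.1 CPM was under the level so carried in all 6 libraries, and the measured Sh3bp2KI/KI mean of 25.8 CPM was over it in 5 of 6. After that level was subtracted, 105 to 351 counts were left in 5 of 6 Sh3bp2KI/KI libraries and 0 in all 6 wild type libraries. The 0 in wild type was fixed by a carried level above the measured one. It shows that the estimate was too high for Il1rn there, and it is no genotype difference. After subtraction Il1rn missed the filter on low counts and was not tested. The part of stromal RNA in the hematopoietic Il1rn level was not tested beyond this. Without the replicate 3 libraries the log2 fold change was 0.14.

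RefSeq gives Il1rn 3 starts on GRCm38.p6, and the upstream sequences of its first start and of the second are shown because the transcript changed most. Capitals mark matches to the letters TGANTCA, an AP-1 motif, searched on both strands of the 300 bases from 250 before to 50 after a start. The same search covered TTGCNNAA for C/EBP, the letters AGATAA for the GATA family, and the consensus motif of NF-kB. Of 32534 RefSeq promoters, 8.50% hold the NF-kB motif, 7.79% the AP-1, 10.8% the C/EBP and 11.2% the GATA letters. The first Il1rn start has an AP-1 match beginning 141 bases before it, and the windows of the other 2 starts hold none of the 4. A looser NF-kB pattern, which was searched before the consensus, is in 20.8% of promoters and among the 10 genes matched 54 bases before the first Il1rn start and 119 bases before the Il1rap start, where the consensus did not.
Il1rn upstream, first start, chr2:24336610-24336859, plus strand: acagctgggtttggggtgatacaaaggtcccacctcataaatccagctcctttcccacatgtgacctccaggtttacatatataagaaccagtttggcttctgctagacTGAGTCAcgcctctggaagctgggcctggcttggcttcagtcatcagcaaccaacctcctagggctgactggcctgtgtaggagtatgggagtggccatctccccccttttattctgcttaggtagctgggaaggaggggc
Il1rn upstream, second start, chr2:24345041-24345290, plus strand: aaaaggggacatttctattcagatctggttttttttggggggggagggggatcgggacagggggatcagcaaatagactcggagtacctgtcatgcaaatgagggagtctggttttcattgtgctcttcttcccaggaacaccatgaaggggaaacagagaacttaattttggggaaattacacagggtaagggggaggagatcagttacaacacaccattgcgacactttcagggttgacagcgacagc

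The gene counts do not tell which start was used. Of the other ligands and Casp1, Il1a has an AP-1 match beginning 12 bases before its start, 1 of 2 Il33 starts has a C/EBP match, and Il18 and Casp1 have no match. A match is a description of letters, and its absence says only that these letters are not in the window.

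Among the receptors, Il1r1 (ENSMUSG00000026072, chr1:40225080-40317257, plus strand), the signalling receptor for interleukin 1 alpha and beta, was higher in Sh3bp2KI/KI in both populations. In mesenchymal libraries its lowest, median and highest levels were 62.6, 71.0 and 84.4 CPM in Sh3bp2KI/KI, against 42.6, 48.7 and 79.9 CPM in wild type. The ranges overlapped, with 2 Sh3bp2KI/KI libraries above every wild type library and 6 of 6 above the wild type mean. The log2 fold change of 0.40 was just past the threshold (SE 0.11, edgeR adjusted p = 0.0416). It missed the threshold in 11 of 12 fits that left out 1 library, with adjusted p up to 0.101, and at 0.160 by edgeR without the term for the run. By run, Il1r1 averaged 80.6 ± 5.18 CPM in Sh3bp2KI/KI against 65.5 ± 17.01 CPM in wild type in run 1, and 65.2 ± 2.34 CPM against 46.7 ± 3.62 CPM in run 2 (SD, n = 3 each).

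In hematopoietic libraries Il1r1 had a lowest, median and highest level of 6.17, 6.82 and 11.2 CPM in Sh3bp2KI/KI, against 1.98, 3.88 and 6.90 CPM in wild type. All 6 Sh3bp2KI/KI libraries were above the wild type mean and 3 were above every wild type library. The log2 fold change was 0.96 (SE 0.22, edgeR adjusted p = 0.0094), kept in every fit that left out 1 library and without the replicate 3 libraries, and not past the threshold in either run alone (edgeR adjusted p = 0.195 and 0.120). The level that the estimated stromal RNA would carry was 7.76 ± 4.19 CPM in Sh3bp2KI/KI and 6.29 ± 3.05 CPM in wild type, beside measured means of 7.96 ± 2.26 CPM and 4.24 ± 1.87 CPM (SD, n = 6 each). Measured Il1r1 was under the carried level in 2 of 6 Sh3bp2KI/KI and 4 of 6 wild type libraries, and after subtraction 3 Sh3bp2KI/KI libraries with 19 to 34 counts and 2 wild type libraries with 4 to 8 counts were left, which missed the filter on low counts. With the share of the other population as a covariate Il1r1 kept its call in hematopoietic cells (edgeR adjusted p = 0.00665) and lost it in mesenchymal cells (0.36, edgeR adjusted p = 0.0769).

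**Figure D3:**
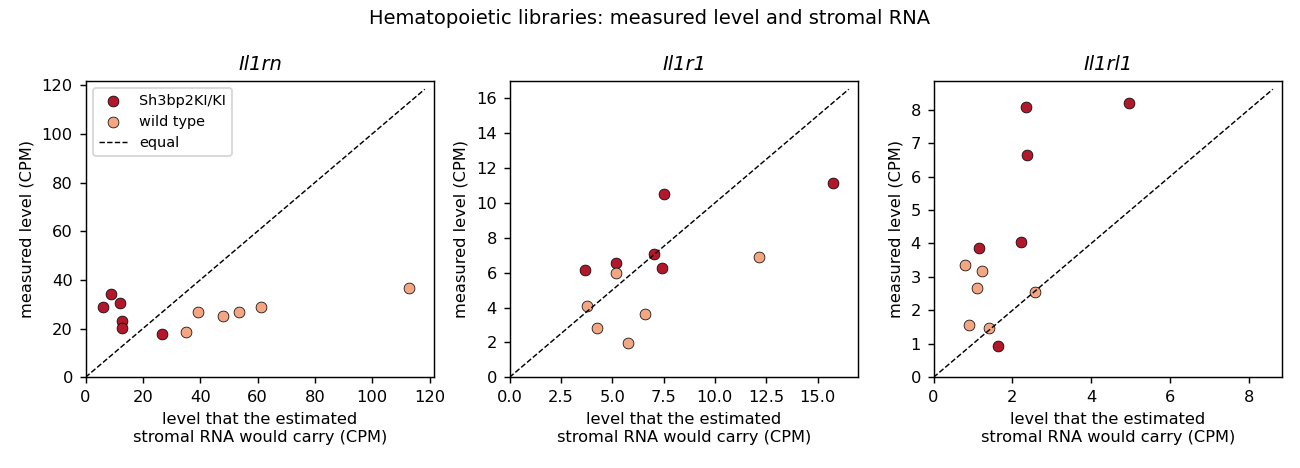
Measured level (y axis, CPM) of Il1rn, Il1r1 and Il1rl1 in each hematopoietic library against the level that its estimated stromal RNA would carry (x axis, CPM), for Sh3bp2KI/KI and wild type, with a dashed line where both are equal. All 6 wild type points for Il1rn lie below the line and 5 of 6 Sh3bp2KI/KI points above it, and Il1r1 points scatter around it.

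Il1rl1 (ENSMUSG00000026069, chr1:40429570-40465415, plus strand) encodes ST2, the interleukin 33 receptor, both as a membrane protein and as a shorter soluble form. Its lowest, median and highest levels were 18.1, 19.3 and 37.1 CPM in Sh3bp2KI/KI mesenchymal libraries, against 8.21, 11.9 and 15.8 CPM in wild type ones. Every Sh3bp2KI/KI library was above every wild type library. Its log2 fold change was 0.95 (SE 0.20, edgeR adjusted p = 0.0115), and the call was kept in all 12 fits that left out 1 library. Within runs the means were 21.1 ± 3.73 CPM in Sh3bp2KI/KI against 11.9 ± 3.80 CPM in wild type in run 1, and 24.8 ± 10.7 CPM against 11.9 ± 1.32 CPM in run 2 (SD, n = 3 each), without passing the test in either (edgeR adjusted p = 0.122 and 0.160). In 1 fit of all 24 libraries adjusted p was 0.0686 by edgeR.

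In hematopoietic libraries Il1rl1 ran from 0.947 to 8.20 CPM in Sh3bp2KI/KI, median 5.33, against 1.47 to 3.36 CPM in wild type, median 2.61. There 5 Sh3bp2KI/KI libraries were above and 1 was below every wild type library. The log2 fold change of 1.11 did not pass the test (SE 0.42, edgeR adjusted p = 0.0969), but did so without the low library, replicate 2, at 1.32 (edgeR adjusted p = 0.0115), and by DESeq2 (adjusted p = 0.0446). The level that the estimated stromal RNA would carry was 2.44 ± 1.32 CPM in Sh3bp2KI/KI and 1.33 ± 0.647 CPM in wild type (SD, n = 6 each). Measured means were 5.29 ± 2.85 CPM and 2.46 ± 0.792 CPM, with 1 of 6 libraries of each genotype under the carried level. With that level subtracted Il1rl1 did not pass the test. The part of stromal RNA in this change was not tested beyond this. Mast cells and lymphoid cells also carry ST2, and of 12 mast cell and basophil markers Ms4a2, Fcer1a, Tpsb2, Tpsab1 and Prss34 were at 0 in mesenchymal libraries of both genotypes. The summed level of the 12 was 5.48 to 16.2 CPM in Sh3bp2KI/KI and 7.33 to 17.1 CPM in wild type mesenchymal libraries. Of the 3 tested there 1 was higher, beside 3.44% of all genes. It was Mcpt8, a basophil protease gene, at 3.86 ± 1.93 CPM in Sh3bp2KI/KI and 0.811 ± 0.390 CPM in wild type (SD, n = 6 each, log2 fold change 2.25, edgeR adjusted p = 0.00401). Kit, the mast cell growth factor receptor gene, stood at 4.45 ± 2.53 CPM in Sh3bp2KI/KI and 8.54 ± 3.98 CPM in wild type and Gata2 at 3.01 ± 0.908 CPM and 2.57 ± 1.24 CPM, and neither passed the test (edgeR adjusted p = 0.143 and 0.714). The part of such cells in the Il1rl1 level was not tested. Of 12 T cell and innate lymphoid markers 3 could be tested there and 0 were called by edgeR, with 2, Thy1 and Trac, at an unadjusted p under 0.05 and 1, Thy1, called higher by DESeq2. Cd3d, Cd8a and Nkg7 were at 0 in both genotypes, and the summed level of the 12 was 257 to 960 CPM in Sh3bp2KI/KI and 145 to 651 CPM in wild type. Nearly all of that sum was Rora, at 480.3 ± 295 CPM in Sh3bp2KI/KI and 347 ± 228 CPM in wild type. Thy1 was next at 9.23 ± 3.78 CPM and 4.63 ± 2.43 CPM (SD, n = 6 each). Of 12 endothelial markers 10 were tested in mesenchymal cells, and edgeR called 0 higher and 0 lower. Half-way in rank, their log2 fold changes stood at 0.69 (median), above the 0.0011 of all tested genes. The 12 summed to 18.3 to 133 CPM in Sh3bp2KI/KI and 9.18 to 77.9 CPM in wild type mesenchymal libraries. The part of endothelial cells in the Il1rl1 and Il1r1 levels was not tested.

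The upstream sequences of the first and second RefSeq starts of Il1r1 and Il1rl1 are shown because these neighbouring genes both rose in mesenchymal cells. Capitals mark a C/EBP match beginning 133 bases before the first Il1r1 start, an NF-kB match on the minus strand 232 bases before the second, and in Il1rl1 a GATA match at 217 bases and a C/EBP match at 34 bases before the first start and a GATA match on the minus strand at 103 bases before the second.
Il1r1 upstream, first start, chr1:40224830-40225079, plus strand: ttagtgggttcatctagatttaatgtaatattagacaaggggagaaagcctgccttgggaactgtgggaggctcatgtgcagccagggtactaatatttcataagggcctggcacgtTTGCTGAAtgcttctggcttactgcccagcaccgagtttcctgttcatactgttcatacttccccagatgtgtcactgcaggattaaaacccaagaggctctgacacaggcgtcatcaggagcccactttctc
Il1r1 upstream, second start, chr1:40266336-40266585, plus strand: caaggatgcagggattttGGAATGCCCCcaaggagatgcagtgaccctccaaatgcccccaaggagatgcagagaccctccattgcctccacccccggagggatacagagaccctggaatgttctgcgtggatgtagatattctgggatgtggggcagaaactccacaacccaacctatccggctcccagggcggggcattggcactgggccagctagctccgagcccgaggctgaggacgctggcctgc
Il1rl1 upstream, first start, chr1:40429320-40429569, plus strand: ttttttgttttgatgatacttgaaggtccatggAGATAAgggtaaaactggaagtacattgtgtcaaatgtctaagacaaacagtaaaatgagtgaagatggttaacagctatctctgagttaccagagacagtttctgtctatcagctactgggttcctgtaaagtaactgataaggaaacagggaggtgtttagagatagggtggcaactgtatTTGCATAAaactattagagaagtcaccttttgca
Il1rl1 upstream, second start, chr1:40439379-40439628, plus strand: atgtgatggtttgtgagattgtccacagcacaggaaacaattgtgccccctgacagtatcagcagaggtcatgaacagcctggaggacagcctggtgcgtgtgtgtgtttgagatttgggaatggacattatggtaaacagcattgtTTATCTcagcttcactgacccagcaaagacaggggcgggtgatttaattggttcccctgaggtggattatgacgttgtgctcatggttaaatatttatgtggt

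Il1rap (ENSMUSG00000022514, chr16:26581704-26730117, plus strand), the accessory chain shared by the interleukin 1 and interleukin 33 receptors, passed the test in neither population. Its lowest, median and highest levels were 33.1, 36.5 and 49.0 CPM in Sh3bp2KI/KI hematopoietic libraries, against 27.9, 33.04 and 39.4 CPM in wild type ones (log2 fold change 0.21, SE 0.10, edgeR adjusted p = 0.175). In mesenchymal libraries they were 18.7, 21.1 and 29.6 CPM in Sh3bp2KI/KI, against 21.7, 24.5 and 26.6 CPM in wild type (log2 fold change -0.12, SE 0.11, edgeR adjusted p = 0.543). Both pairs of ranges overlapped. The window at its start holds none of the 4 motifs. The decoy receptor Il1r2 (ENSMUSG00000026073, chr1:40074079-40125231, plus strand) was low and uneven, from 0.0771 to 3.64 CPM in Sh3bp2KI/KI hematopoietic libraries, median 1.52, and from 0 to 3.51 CPM in wild type ones, median 0.877. The ranges almost coincided, and a log2 fold change of 0.42 had an SE of 0.76 (edgeR adjusted p = 0.770). Neutrophils are known for Il1r2, and the summed level of 12 neutrophil markers was 100.1 to 158 CPM in Sh3bp2KI/KI and 105 to 193 CPM in wild type hematopoietic libraries. In each genotype 9 of the 12 averaged 1 CPM or more. The highest was Csf3r, at 55.9 ± 10.9 CPM in Sh3bp2KI/KI and 61.5 ± 11.5 CPM in wild type (SD, n = 6 each). Ly6g was at 0 in all Sh3bp2KI/KI libraries and at 3 counts in wild type. The part of such cells in the Il1r2 level was not tested.

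**Figure D4:**
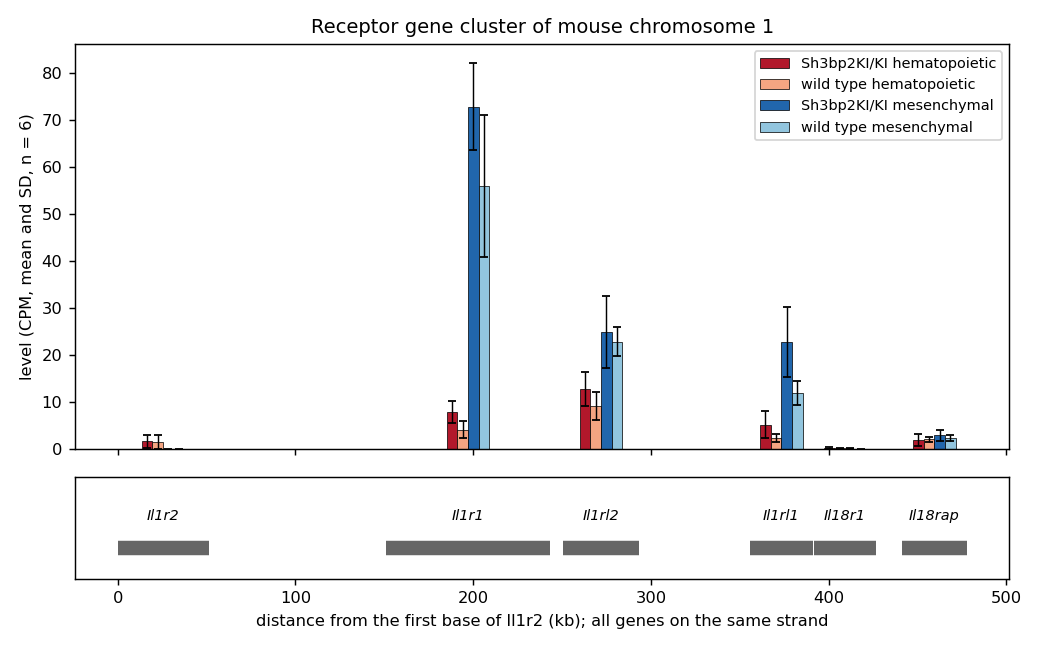
Mean level (upper panel, CPM with SD, n = 6) of the 6 receptor genes at their place in a cluster on mouse chromosome 1 (x axis, kb from the first base of Il1r2; lower panel, gene extents), with Sh3bp2KI/KI bars left of wild type bars. Il1r1, Il1rl2 and Il1rl1 are taller in mesenchymal (blue) than in hematopoietic (red) cells and Il1r2 is not.

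Il1r2, Il1r1 and Il1rl1 lie in 1 cluster with Il1rl2, Il18r1 and Il18rap, all on the plus strand, within 478 kb. The interleukin 36 receptor gene Il1rl2, between Il1r1 and Il1rl1, averaged 24.99 ± 7.60 CPM in Sh3bp2KI/KI and 22.9 ± 3.03 CPM in wild type mesenchymal libraries (SD, n = 6 each) and did not pass the test (log2 fold change 0.13, edgeR adjusted p = 0.693). Il18r1, whose first base is within 1 kb of the end of Il1rl1, had 12 counts in Sh3bp2KI/KI and 4 counts in wild type mesenchymal libraries together. Il18rap, the accessory chain for interleukin 18, passed in neither population, with log2 fold changes of -0.15 in hematopoietic and 0.29 in mesenchymal cells (edgeR adjusted p = 0.783 and 0.609).

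Casp1 (ENSMUSG00000025888, chr9:5298517-5307265, plus strand), which matures interleukin 1 beta and interleukin 18, had a lowest, median and highest level of 9.22, 10.8 and 11.2 CPM in Sh3bp2KI/KI mesenchymal libraries, against 11.1, 13.8 and 20.8 CPM in wild type ones. Here 5 of 6 Sh3bp2KI/KI libraries were below every wild type library. The log2 fold change of -0.45 narrowly missed the threshold (SE 0.13, edgeR adjusted p = 0.0572), and passed it by DESeq2 (adjusted p = 0.0246) and without wild type replicate 2 or 4 (edgeR adjusted p = 0.0494 and 0.0301). In hematopoietic libraries Casp1 ran from 30.4 to 42.6 CPM in Sh3bp2KI/KI, median 35.3, against 32.0 to 50.5 CPM in wild type, median 42.7, with overlapping ranges and a log2 fold change of -0.18 (SE 0.11, edgeR adjusted p = 0.304).

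The population comparisons asked which side of the sort carried each gene. Il1a, Il1b, Il18, Il1rap, Il1r2 and Casp1 were higher in hematopoietic cells, and Il1rn, Il1r1 and Il1rl1 were higher in mesenchymal cells, in either genotype. All 9 tested genes passed the test by edgeR in both genotypes, where 73% of 15389 genes were called in Sh3bp2KI/KI, 39.1% higher and 33.9% lower in hematopoietic cells, and 73.5% in wild type, 38% higher and 35.4% lower. Il1b, Il1a and Il1r2 had few mesenchymal counts. Scaled counts of Il1b in hematopoietic libraries were 196 times those in mesenchymal libraries in Sh3bp2KI/KI (95% exact interval 66.9 to 955, counting error only) and 193 times in wild type (52.9 to 1597). Il1a was 25.3 times as abundant in hematopoietic libraries in Sh3bp2KI/KI (14.3 to 49.5) and 130 times in wild type (35.5 to 1077), and Il1r2 was 34.97 times (13.3 to 130) and 31.7 times (12.1 to 118). Those ratios rest on 2 to 12 mesenchymal counts each, and single libraries moved them. The fitted log2 fold change of Il1a in Sh3bp2KI/KI, 4.68 with all libraries, was 6.07 without mesenchymal replicate 4 and 3.97 without hematopoietic replicate 6, and both wild type mesenchymal counts came from replicate 1. For Il1b it was 8.21 without mesenchymal replicate 4 in Sh3bp2KI/KI (7.32 with all). For Il1r2 it was 4.12 without hematopoietic replicate 4 and 5.58 without mesenchymal replicate 5 in Sh3bp2KI/KI (4.88 with all), and 5.28 without mesenchymal replicate 6 in wild type (4.60 with all).

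For the genes measured on both sides, log2 fold changes of hematopoietic over mesenchymal were as follows in Sh3bp2KI/KI cells. Il18 stood at 1.43, Casp1 at 1.81 and Il1rap at 0.80, while Il1rn stood at -2.25, Il1r1 at -3.21 and Il1rl1 at -2.12. In wild type cells Il18 stood at 1.96, Casp1 at 1.55 and Il1rap at 0.48, while Il1rn stood at -4.26, Il1r1 at -3.77 and Il1rl1 at -2.28. The adjusted p-values of these by edgeR were at most 3.60e-06 in Sh3bp2KI/KI and 0.000119 in wild type. None of the ranges of these 6 genes overlapped between the populations within a genotype. The share of all genes without overlap was not computed. With 73% of 15389 genes called in Sh3bp2KI/KI and 73.5% in wild type, this is not read as a trait of the 6. From the lowest level up, the order for Il1rn was both hematopoietic groups, which overlapped, then Sh3bp2KI/KI mesenchymal and then wild type mesenchymal cells.

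The genotype change differed between the populations for 2 of the 9 tested genes, Il1rn and Il18, where the interaction term called 7.28% of 15389 genes, 4.36% with a higher and 2.92% with a lower change in hematopoietic cells. For Il18 the hematopoietic minus mesenchymal difference was -0.52 in log2 (SE 0.15, edgeR adjusted p = 0.0353), and adjusted p reached 0.0752 in fits that left out 1 library, missing the threshold in 13 of 24. Il1r1, with changes of the same sign in both populations, had an interaction of 0.55 (SE 0.24, edgeR adjusted p = 0.180), and Il1rl1 one of 0.16 (SE 0.46, edgeR adjusted p = 0.908). For both, a difference between the populations was not detected.

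Levels were also set per kilobase of exon, counting all annotated exons of a gene, from 1031 bases for Il18 to 11360 for Il1rap. A gene whose main transcript leaves out some of these exons reads too low, so the comparison between genes is rough. Stromal RNA was not taken off the hematopoietic levels. On this scale the order differed between the populations. Among Sh3bp2KI/KI hematopoietic libraries Casp1 averaged 24.4 and Il18 20.01 CPM per kb, followed by Il1rn at 4.67, Il1b at 3.87, Il1rap at 3.39, Il1a at 1.94, Il1r1 at 1.25, Il1r2 at 0.891 and Il1rl1 at 0.767. Wild type hematopoietic libraries gave 28.2 for Casp1, 25.6 for Il18, 4.90 for Il1rn, 2.96 for Il1rap and 2.32 for Il1b. In Sh3bp2KI/KI mesenchymal libraries Il1rn averaged 22.3 ± 9.45 CPM per kb, ahead of Il1r1 at 11.5 ± 1.44, Il18 at 7.43 ± 1.17 and Casp1 at 6.97 ± 0.498 (SD, n = 6 each). Among wild type mesenchymal libraries Il1rn averaged 93.9 ± 25.3 CPM per kb, ahead of Casp1 at 9.61 ± 2.33, Il1r1 at 8.82 ± 2.37 and Il18 at 6.60 ± 1.16. Neighbours such as Casp1 and Il1r1 in wild type, or Il18 and Casp1 in Sh3bp2KI/KI mesenchymal libraries, were within their SDs of each other.

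Of 12 other genes of the family, 4 could be tested in each genotype comparison and 0 were called by edgeR, with 0 in hematopoietic and 1 in mesenchymal cells at an unadjusted p under 0.05 and 0 called by DESeq2 in either. Over all tested genes edgeR called 15.9% in hematopoietic and 7.27% in mesenchymal cells, so 0 of 4 is not read as a trait of the family. The 4 tested were Il18rap, Il1rl2, the soluble interleukin 18 inhibitor Il18bp, whose exons overlap those of Numa1, and Il1rapl1. With no filter on low counts 8 were tested in hematopoietic cells and Il36g, an interleukin 36 ligand, was called higher. Its level was 0.518 to 1.47 CPM in Sh3bp2KI/KI and 0 to 0.851 CPM in wild type hematopoietic libraries, on 84 and 21 counts. Il1rapl2, a gene of the same receptor family, averaged 0.458 ± 0.201 CPM in Sh3bp2KI/KI and 1.01 ± 0.209 CPM in wild type hematopoietic libraries (SD, n = 6 each), and the inhibitory receptor gene Sigirr 0.515 ± 0.263 CPM and 0.714 ± 0.330 CPM. Il36a and Il36rn had 0 counts in all 24 libraries, and Il36b and Il1f10 had 1 count each.

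Genes downstream of the receptors were read from a list of 29 targets of interleukin 1 and NF-kB, among them inhibitors of the pathway, chemokines and Il6. Of the 23 that could be tested in hematopoietic cells edgeR called 14 higher and 0 lower in Sh3bp2KI/KI, beside 9.01% higher over all genes, and the list's median log2 fold change was 0.78. Tnip1, an inhibitor of NF-kB signalling, averaged 209 ± 33.2 CPM in Sh3bp2KI/KI and 102 ± 12.4 CPM in wild type (log2 fold change 1.06, edgeR adjusted p = 6.63e-05). Nfkbia, which encodes the inhibitor that holds NF-kB in the cytoplasm, averaged 64.9 ± 12.96 CPM and 30.6 ± 3.28 CPM (1.10, edgeR adjusted p = 0.000124). Bcl3, a nuclear partner of NF-kB, averaged 50.7 ± 9.62 CPM in Sh3bp2KI/KI and 25.6 ± 5.97 CPM in wild type, and the adaptor Traf1 23.8 ± 8.94 CPM and 4.72 ± 1.43 CPM (SD, n = 6 each). These targets also answer to other cytokines and receptors. The count was 13 without the replicate 3 libraries, 11 of 24 in run 1 alone and 3 of 23 in run 2 alone, with median log2 fold changes of 0.80, 0.73 and 0.84.

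In mesenchymal cells 2 of 22 tested targets were higher and 1 was lower, beside 3.44% higher and 3.83% lower over all genes, and their median log2 fold change was 0.01. The neutrophil-attracting chemokine genes Cxcl5 and Cxcl1 were higher, at 6.69 ± 3.78 CPM in Sh3bp2KI/KI and 1.23 ± 0.608 CPM in wild type, and at 4.90 ± 2.25 CPM and 1.98 ± 0.252 CPM (log2 fold changes 2.47 and 1.31, edgeR adjusted p = 0.0027 and 0.0129). Zc3h12a, an RNase that degrades cytokine transcripts, was lower, at 11.96 ± 2.01 CPM in Sh3bp2KI/KI and 18.6 ± 1.60 CPM in wild type (-0.63, edgeR adjusted p = 0.00544). The interaction term called 10 of 25 tested targets, all with a more positive change in hematopoietic than in mesenchymal cells, where 4.36% of all genes were called in that direction.

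**Figure D5:**
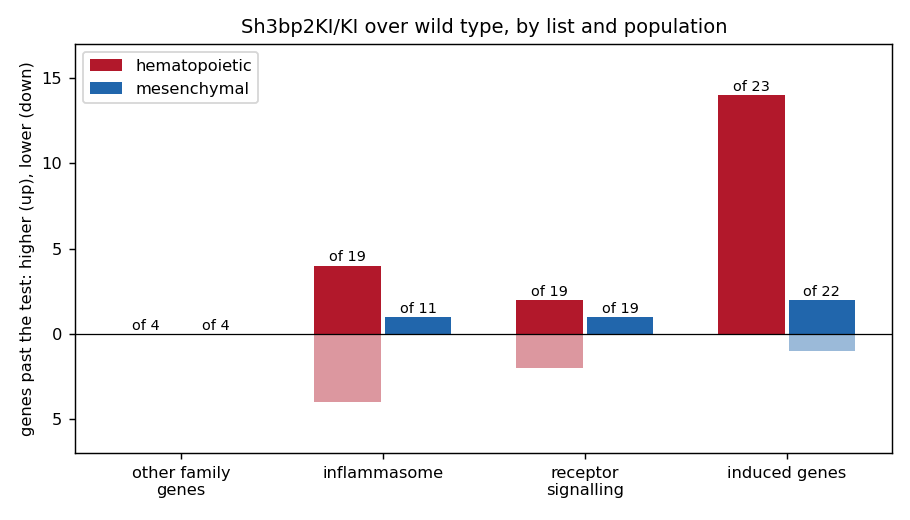
Number of genes (y axis) that were higher (above 0) or lower (below 0, paler) in Sh3bp2KI/KI than in wild type by edgeR, for 4 gene lists (x axis), in hematopoietic (red) and mesenchymal (blue) cells, with the number tested over each bar. The list of induced genes has 14 higher and 0 lower of 23 in hematopoietic cells, and inflammasome genes have 4 in each direction of 19.

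Inflammasome and pyroptosis genes split in hematopoietic cells, with 4 higher and 4 lower of 19 tested, beside 9.01% higher and 6.89% lower over all genes, and a median log2 fold change of 0.01. Mefv, which encodes the sensor pyrin, averaged 90.3 ± 34.0 CPM in Sh3bp2KI/KI and 15.3 ± 6.90 CPM in wild type (log2 fold change 2.63, edgeR adjusted p = 0.000445). Gsdmd, the pore-forming protein of pyroptosis, was 0.54 higher in log2 (edgeR adjusted p = 0.0052), and Naip1, a sensor of bacterial secretion systems, was 2.18 higher at 2.95 ± 1.21 CPM in Sh3bp2KI/KI and 0.655 ± 0.265 CPM in wild type (edgeR adjusted p = 0.000926). Nlrp3, the sensor of the best known inflammasome, was lower, at 124 ± 11.1 CPM in Sh3bp2KI/KI and 175 ± 21.9 CPM in wild type (-0.48, edgeR adjusted p = 0.00223). In either run alone 1 of the 19 was called. Naip genes are near-identical neighbours, so their counts are uncertain. In mesenchymal cells 1 of 11 tested was called, beside 7.27% over all genes, namely Txnip, at a log2 fold change of 0.62 (edgeR adjusted p = 0.0495).

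Among components of receptor signalling, 2 of the 19 tested were higher and 2 lower in Sh3bp2KI/KI hematopoietic cells, beside 9.01% higher and 6.89% lower over all genes, with a median log2 fold change of 0.03. Ikbkg, the regulatory subunit of the IKK complex, was 0.44 higher and Irak3, an inhibitory member of the IRAK family, 0.64 higher (edgeR adjusted p = 0.0133 and 0.0316), while the ubiquitin ligase gene Peli1 and the adaptor gene Tab2 were lower (log2 fold changes -0.34 and -0.21, edgeR adjusted p = 0.0261 and 0.0463). Without the replicate 3 libraries 0 of the 19 were called by edgeR, with 7 at an unadjusted p under 0.05. In mesenchymal cells 1 of 19 was called, beside 7.27% over all genes, the ubiquitin ligase Traf6 at a log2 fold change of 0.37 (edgeR adjusted p = 0.0217).

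Markers of osteoclasts and macrophages moved with genotype in the hematopoietic libraries, where 9.01% of all tested genes were higher and 6.89% lower. Osteoclast markers were higher for 10 of 12 and lower for 0, with summed levels of 2825 to 6248 CPM in Sh3bp2KI/KI and 836 to 2489 CPM in wild type. Macrophage markers were higher for 1 and lower for 6 of 12, with summed levels of 16884 to 24945 CPM in Sh3bp2KI/KI and 13243 to 21203 CPM in wild type, the higher one being Lyz2, which made up most of that sum at 15051 ± 3008 CPM in Sh3bp2KI/KI and 9669 ± 2370.1 CPM in wild type (SD, n = 6 each). Of 9 tested neutrophil markers 0 were called by edgeR or DESeq2, and 0 had an unadjusted p under 0.05. The part of these cell types in the changes of Il1b, Il18 and the NF-kB targets was not tested. Osteoclast markers were also higher for 3 of 7 tested and lower for 0 in mesenchymal libraries, beside 3.44% higher and 3.83% lower over all genes. Their summed levels were 251 to 497 CPM in Sh3bp2KI/KI and 218 to 403 CPM in wild type. The higher ones were Mmp9, at 18.4 ± 9.52 CPM in Sh3bp2KI/KI and 0.623 ± 0.346 CPM in wild type (SD, n = 6 each; log2 fold change 4.89, edgeR adjusted p = 0.000135), Atp6v0d2 at 3.92 and Acp5 at 3.595 (edgeR adjusted p = 0.00528 and 0.00641). Of 11 tested macrophage markers Mertk was lower there (-0.79, edgeR adjusted p = 0.0130) and 0 were higher. The part of these cells in the mesenchymal changes of Il1rn, Il1rl1, Il1r1 and the chemokines was not tested. In mesenchymal libraries 3 of 21 stromal markers were lower and 0 higher, beside 3.83% lower and 3.44% higher over all genes. The lower ones include Cxcl12 at 341 ± 55.8 CPM in Sh3bp2KI/KI and 1127 ± 402 CPM in wild type (log2 fold change -1.72, edgeR adjusted p = 0.000793) and Lepr at -1.10. They stood beside the fall of Il1rn, and their part in it was not tested. Hematopoietic RNA could carry 0.155 ± 0.0867 CPM of Il1rn into Sh3bp2KI/KI and 0.1102 ± 0.0305 CPM into wild type mesenchymal libraries (SD, n = 6 each).

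The genes most like each of the 10 in level were taken over the 12 libraries of the population where it was higher, by Pearson r of log2 CPM among protein-coding genes averaging 10 CPM or more. These libraries include both genotypes, so a shared genotype change raises r. Each r given is also among the highest of 8676 to 8745 genes over 12 libraries, a choice that raises r by itself. No r was tested. For Il1a and Il1r2 the r rests on low and uneven levels. For Il1rn, over 8676 genes in mesenchymal libraries, they were Sfrp1, a secreted Wnt inhibitor, at r = 0.97 and Hp, haptoglobin, at 0.97. Il1r1 was closest to Nectin2 at 0.94 and Il1rl1 to Usp14 at 0.93. In hematopoietic libraries Il18 was closest to Slc15a3 at 0.94, Casp1 to Erlin1 at 0.95 and Il1b to Slc25a43 at 0.93. Il1a was closest to the eotaxin receptor gene Ccr3 at 0.91, Il1r2 to Aars at 0.92 and Il1rap to Dagla at 0.87.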

How the data were processed

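RNA-seq of 24 libraries was analysed. Per the labels' protocols, total RNA was depleted of ribosomal RNA, stranded libraries were made and paired ends were sequenced. The authors deposited whole-number gene counts, 1 table per library, not normalized. FastQC 0.11.7, MultiQC, HTSeq 0.9.1, DESeq2 1.20.0 and the build GRCm38 (mm10) are named per the submitters' processing notes. The aligner is not given in the sources used here, nor is whether counting used the strand, so counts of Il1a, Il1b and Il1rap are uncertain where Gm14023, Il1bos and Gm20319 overlap their exons. Symbols, coordinates and exon lengths came from GENCODE M21, which matched 54165 of the 54232 identifiers.

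Counts were tested in R 4.3.3 with edgeR 4.0.16: filterByExpr (minimum count 10, minimum total 15), TMM, robust quasi-likelihood test, Benjamini-Hochberg over all tested genes, threshold 0.05. Genotype comparisons used the 12 libraries of a population, and population comparisons and the interaction all 24. The sequencing run, a term in each fit, is the meaning assumed here for a prefix in the file names, with 3 libraries of each group in each run. SE is the log2 fold change divided by the square root of F. The tests were checked on simulated counts. Replicate pairs of a group differed by more than counting noise, at 6.73 to 58.8 chi-square per degree of freedom.

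The stromal share of a hematopoietic library is the median level of stromal markers (10 CPM or more) relative to the mesenchymal mean of its genotype. The carried level is that share of the mesenchymal mean. It is too high for a gene and library where it exceeds the measured level. Alternatives were DESeq2 1.42.0, its size factors, no filter, no run term, each run alone, the replicate block, no robust fit, 1 fit of 24 libraries, subtraction of the carried level, and each library left out.

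The 10 genes and all gene lists were chosen with earlier results of these data known. The 10 and the 12 other family genes are always named, and of each other list up to 4 called genes per genotype comparison by adjusted p, a part of which the text gives. Il36g, Lyz2, Thy1, Trac, the promoter motifs, the settings quoted beside a call and the order of topics were chosen after values were seen.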

Additional observations from a re-analysis of the deposited data

Results flagged for a closer look

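The genotype change of Il1rn, the receptor antagonist, differed between the populations: Sh3bp2KI/KI over wild type was 2.01 higher in log2 in hematopoietic than in mesenchymal cells (adjusted p = 0.000605, edgeR interaction term). Il1rn was lower in 6 of 6 Sh3bp2KI/KI mesenchymal libraries than in any wild type one, while the hematopoietic ranges overlapped. The hematopoietic libraries also held stromal RNA, estimated to carry 13.1 ± 7.09 CPM of Il1rn in Sh3bp2KI/KI and 58.3 ± 28.3 CPM in wild type (SD, n = 6 each). After its subtraction Il1rn could not be tested, so its part in this interaction was not tested. For Il18 the same difference was -0.52 (adjusted p = 0.0353 by edgeR), with 6 of 6 Sh3bp2KI/KI hematopoietic libraries below every wild type one and overlapping mesenchymal ranges. A check for a library far from the other 5 of its group, by Dixon's criterion over 30 gene and group combinations averaging 1 CPM or more, marked 0, where chance marks about 1 in 20.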

How the results depend on the processing

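Each run alone, with 3 libraries a group, called 0 and 0 of the 10 in hematopoietic cells, 1 and 0 in mesenchymal cells and 0 and 0 in the interaction, with 672 and 218, 391 and 76, and 180 and 138 genes called in all. Without the libraries over 15% stromal RNA, 1 of the 10 was called in hematopoietic cells, beside 3 with all libraries. The number of genes called in all stayed nearer there to the 2231 called with all libraries than in either run alone. This alternative and the stromal share as a covariate were added after the data were seen. DESeq2 called 1664 genes in mesenchymal cells, and leaving out 1 library gave 646 to 1036, the lowest without Sh3bp2KI/KI replicate 1. In 1 fit of all 24 libraries, Il1b in hematopoietic cells lost its call (edgeR adjusted p = 0.0665). Il1r1 and Il1rl1 in mesenchymal cells lost theirs (edgeR adjusted p = 0.129 and 0.0686). Il1rl1 in hematopoietic and Casp1 in mesenchymal cells gained a call there (edgeR adjusted p = 0.0342 and 0.0231). For the interaction, 1 of the 10 was called with no filter on low counts and 1 to 2 with 1 library left out. In the population comparisons Il1r2 in wild type missed the test in run 2 alone (3.43, adjusted p = 0.0980 by edgeR).

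Signs turned only for genes that passed no test in that comparison. In hematopoietic cells these were, as log2 fold changes, Il1rn at 0.14 in run 2 and 0.14 without the libraries over 15%, Il1r2 at -0.37 and Casp1 at 0.0038 in run 1, and Il1a at -0.090 with the replicate block. Interactions turned to 0.68 for Il1a in run 1, and to -0.042 for Il1b and -0.079 for Il1rl1 in run 2. With 1 library left out, the ranges were -0.40 to 0.50 for Il1a, -0.15 to 0.076 for Il1rn and -0.39 to 0.70 for Il1r2 in hematopoietic cells, and -0.27 to 1.14 for Il1b, -0.48 to 0.99 for Il1r2 and -0.033 to 0.37 for Il1rl1 in the interaction. The cause was not tested.

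Same-numbered replicates were not taken as pairs, and the labels state no pairing. Between genotypes, correlations of their deviations were all positive, from 0.096 to 0.48 in hematopoietic and 0.022 to 0.42 in mesenchymal cells. They were over 0.1 in 5 of 6 and 4 of 6 of those pairs. Between populations they ran from -0.12 to 0.32 in wild type and from -0.11 to 0.31 in Sh3bp2KI/KI. A pairing of the genotypes by replicate number is thus not excluded. With the replicate number as a block in place of the run, 3 of the 10 were called in hematopoietic cells, among 3315 genes, and 3 in mesenchymal cells, among 1258 genes, and no call of the 10 changed in any comparison. After subtraction of the carried stromal RNA, Il1rn and Il1r1 in hematopoietic cells missed the filter on low counts and gave no value. Low counts limit Il1a, Il1b and Il1r2 in mesenchymal cells and Il33 in all.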

Other observations

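The balance of antagonist to receptor transcript in mesenchymal cells, as the ratio of Il1rn to Il1r1 counts per library, was 0.895 to 3.03 in Sh3bp2KI/KI, median 1.54, against 6.07 to 14.7 in wild type, median 8.49. These ranges did not overlap. In hematopoietic libraries the ratio of Il1rn to Il1b counts averaged 3.67 ± 1.32 in Sh3bp2KI/KI and 6.61 ± 2.44 in wild type (SD, n = 6 each). The ranges of 2.68 to 5.49 and 4.31 to 9.80 overlapped. Il1rn there was under the level that the estimated stromal RNA would carry in 6 of 6 wild type and 1 of 6 Sh3bp2KI/KI libraries. The stromal part of this ratio was not tested. Both ratios were chosen after the values of the genes were known and carry no test. They compare counts, not protein, and are not scaled for gene length.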
